A study of Mus musculus with 4 samples.

Results

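Lipid handling was followed through 10 mouse genes (Apoe, Apoc2, Lpl, Trem2, Gpnmb, Fabp4, Fabp5, Cd36, Lipa and Plin2) in single cells from ovarian-type tumors of the omentum and from ascites. The genes were taken by symbol, and all 10 were present in every library, among 30406 genes shared by the 4 annotations. The libraries came from KPCA ascites, taken from C57BL6J mice aged 9 weeks, and from omental tumors of the syngeneic lines A, B and C of KPCA, written KPCA.A to KPCA.C and given in that order, grown in C57BL6J mice aged 8 weeks, with 4 tumors pooled per line. The labels give fallopian tube epithelium as the cell of origin of all groups, do not state which KPCA line gave the ascites, and do not spell out the alleles. With 1 library in each group there is no replicate check and no p-value, and the 95% intervals given reflect counting error alone.

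The omentum is a fat-rich fold of the peritoneum, and tumor cells growing there lie next to adipocytes that release fatty acids. Macrophages take up lipoproteins and free fatty acids, break down cholesterol esters in the lysosome, keep surplus lipid in droplets and hand cholesterol back to lipoprotein particles. Cells that carry such genes at high level are often called lipid-associated macrophages, and large peritoneal macrophages, which need the transcription factor Gata6, are the resident macrophages of the cavity.

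Of 16289 barcodes, 11232 passed the filters, between 2583 and 3090 per library. Their median depth was 2075 UMIs (unique molecular identifiers, 1 for each transcript molecule that was caught) in ascites, against 7883.5, 7932 and 14634 UMIs in the 3 tumors. Clustering, from which the 10 genes were left out, gave 12 classes named by markers, all written as "-like". Macrophage-like cells were 2781 of 2919 ascites cells (95.3%, exact Clopper-Pearson interval 94.4 to 96.0%), while tumor epithelial-like cells were 16. The epithelial origin given in the labels thus does not describe most cells of this library. In the tumors macrophage-like cells numbered 821 in KPCA.A, 641 in KPCA.B and 1135 in KPCA.C. No pair of libraries shared more than 19 barcodes (KPCA.B and KPCA.C). The labels state the same 3′ chemistry for all libraries, but 5 ascites barcodes and 0 tumor barcodes began with AAACCT, and 0 ascites barcodes began with AAACCC, against 9, 3 and 4 in the 3 tumors. Tissue, line, depth and library preparation thus cannot be told apart between ascites and tumors.

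Promoter windows of 3 genes are shown, each 250 bases that end just before a RefSeq transcription start (GRCm38.p6). Over the 15 tumor units of macrophage subset and library described further on, Apoe had a Pearson r of 0.97 with Trem2 and 0.77 with Apoc2 on log2 values. Apoc2 with Trem2 had 0.69. Of these units 2, with Gata6 at 50 CPM or more, were below all the others in each of the 3 genes. Windows were found for 7 of the 10 genes. Capitals mark matches, on either strand, to AGGTCA, a sequence bound by nuclear receptors, and to GAGGAA, the core that PU.1 binds.
Apoe, chr7:19699189-19699438, minus strand: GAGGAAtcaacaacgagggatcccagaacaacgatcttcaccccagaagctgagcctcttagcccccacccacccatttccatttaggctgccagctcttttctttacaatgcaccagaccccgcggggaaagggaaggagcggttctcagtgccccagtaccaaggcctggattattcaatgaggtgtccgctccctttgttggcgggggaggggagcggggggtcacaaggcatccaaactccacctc
Apoc2, chr7:19677942-19678191, minus strand: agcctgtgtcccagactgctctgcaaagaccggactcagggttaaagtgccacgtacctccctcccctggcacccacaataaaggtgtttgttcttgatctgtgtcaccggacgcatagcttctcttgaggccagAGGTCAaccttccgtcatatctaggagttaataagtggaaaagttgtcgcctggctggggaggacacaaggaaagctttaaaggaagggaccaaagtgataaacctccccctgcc
Trem2, chr17:48346151-48346400, plus strand: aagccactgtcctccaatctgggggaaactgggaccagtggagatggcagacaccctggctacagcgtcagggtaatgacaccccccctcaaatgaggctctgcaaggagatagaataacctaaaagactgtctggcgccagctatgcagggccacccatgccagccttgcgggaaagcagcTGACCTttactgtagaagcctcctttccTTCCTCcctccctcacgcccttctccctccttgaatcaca

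Apoe has 3 listed starts, and the window shown is that of start 1. It held GAGGAA at its far end, 250 bases before that start. The window of start 2 held 0 matches, and that of start 3 held GAGGAA 132 bases before it. Apoc2 held AGGTCA 115 bases before its start. Trem2 held AGGTCA, read as TGACCT, at 68 bases and GAGGAA, read as TTCCTC, at 40 bases. The E-box CACGTG was not among the letters of any of the 3 windows. Such matches are common: AGGTCA was in 14.0% of 32851 windows of this length, GAGGAA in 23.3% and CACGTG in 6.02%. They describe these windows and show no binding. Apoe and Apoc2 are neighbours on chromosome 7, at 19696109-19699188 and 19671579-19677941, both on the minus strand in GRCm38. Fabp4 (10204088-10208576, minus strand) and Fabp5 (10012548-10016607, plus strand) are both on chromosome 3. Lpl is at 68880491-68907448 on chromosome 8, Trem2 at 48346401-48354147 on chromosome 17 and Gpnmb at 49036546-49070929 on chromosome 6, all on the plus strand. Cd36 is at 17781690-17888801 on chromosome 5, Lipa at 34492318-34527474 on chromosome 19 and Plin2 at 86648386-86670060 on chromosome 4, all on the minus strand.

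By cell class, most of the genes were highest in macrophage-like cells. Among classes with at least 50 cells, these cells had the highest level of 7 genes in ascites, where Apoc2, at 1 UMI, was left out, and of 6 in KPCA.A, 7 in KPCA.B and 7 in KPCA.C out of 10. Levels are given in CPM, the UMIs of a gene per 1000000 UMIs summed over that class in that library. Lpl was the exception shared by the 3 tumors, where fibroblast-like cells exceeded macrophage-like cells. Fabp5 was highest in dendritic cell-like cells of ascites, KPCA.B and KPCA.C, although in ascites 12 of 50 such cells had a UMI of it. Fabp4 and Cd36 were highest in endothelial-like cells of KPCA.A, where alone 50 such cells were found. Some leads lay within counting error: the intervals of macrophage-like cells overlapped those of the next class for Gpnmb and Cd36 in KPCA.B, for Gpnmb, Fabp5 and Lipa in KPCA.A, and for Lpl, Trem2, Gpnmb and Lipa in ascites, where the next class was the 50 dendritic cell-like cells.

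**Figure D1:**
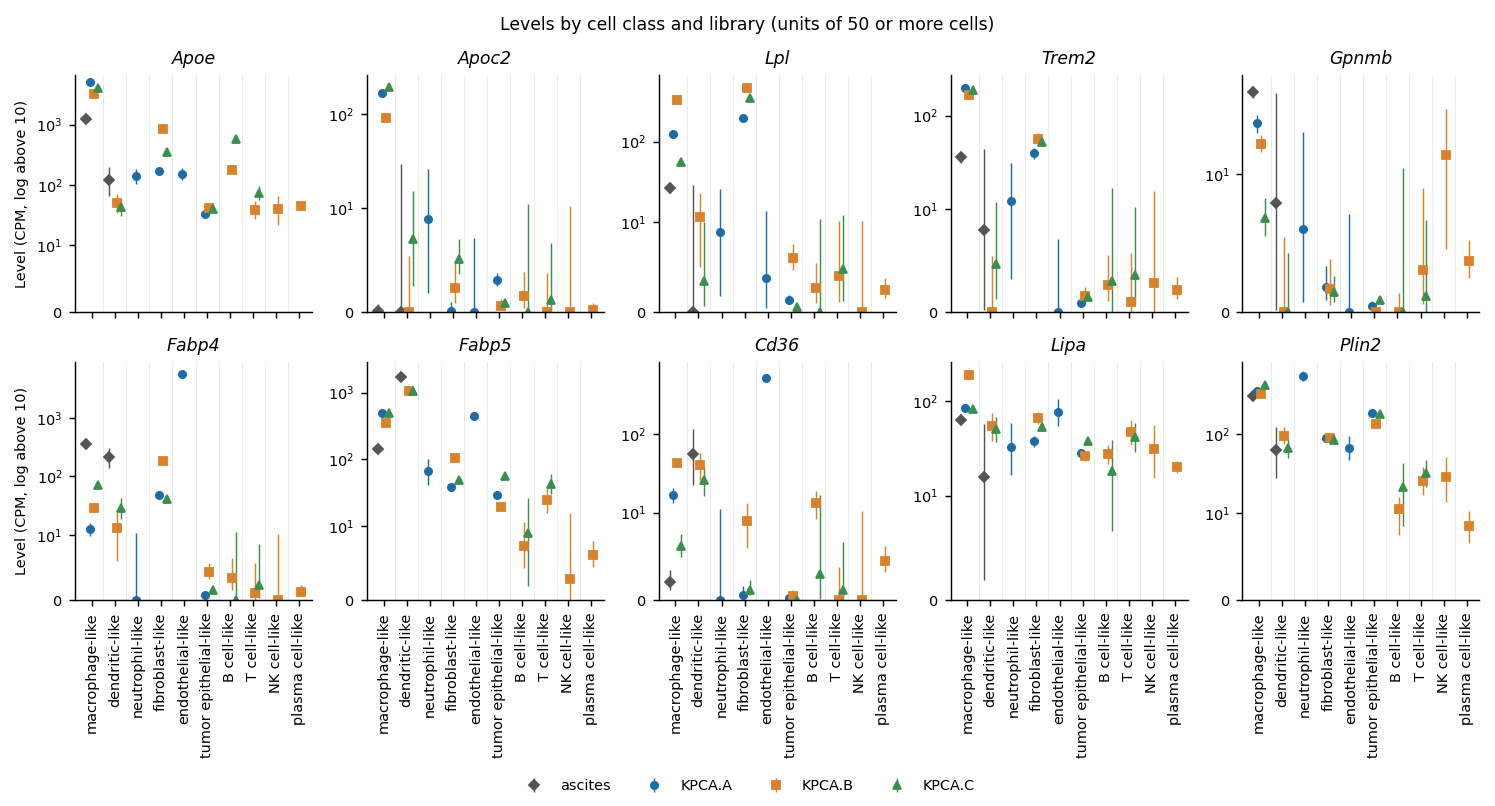
Levels (CPM, linear up to 10 and logarithmic above) of the 10 genes by cell class and library, for units of at least 50 cells, with bars for the 95% counting interval. Macrophage-like cells carry the highest Apoe in every library, from 1229 CPM in ascites to 5088 CPM in KPCA.A, while endothelial-like cells of KPCA.A stand highest for Fabp4 at 5522 CPM.

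In macrophage-like cells, ascites had less Apoe, Trem2, Fabp5 and Lpl than the tumors and far more Fabp4. Apoe, the ligand that carries lipoproteins to their receptors, stood at 1229 CPM in ascites, against 5088, 3162 and 4079 CPM in the 3 tumors. The ascites level was 4.14-fold (4.04 to 4.24), 2.57-fold (2.51 to 2.64) and 3.32-fold (3.24 to 3.40) lower than in those tumors in the same order. Trem2, a receptor for lipids and lipoproteins including Apoe, was at 35.7 CPM in ascites, against 196, 165 and 186 CPM in the tumors. All 3 tumors were close to each other in Trem2, and ascites was between 4.63-fold and 5.50-fold lower.

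Fatty acid-binding proteins, which carry fatty acids through the cytoplasm, went in opposite directions. Fabp4, the adipocyte and macrophage form, was at 359 CPM in ascites, against 12.6, 28.9 and 70.8 CPM in the 3 tumors. Its ascites level was thus 28.5-fold (22.6 to 36.6), 12.4-fold (10.9 to 14.1) and 5.07-fold (4.71 to 5.46) higher. Fabp5, the epidermal form, was at 143 CPM in ascites, against 494, 352 and 488 CPM in the tumors. Gpnmb, a membrane glycoprotein of lysosome-rich macrophages, was also higher in ascites, at 45.3 CPM, against 25.3, 17.5 and 6.78 CPM. Fabp4 and Gpnmb were thus higher in ascites than in each tumor, and Fabp5 was lower.

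Lpl, the secreted lipase that frees fatty acids from lipoprotein triglycerides, was at 26.6 CPM in ascites, against 124, 327 and 55.4 CPM in the tumors. Cd36, a scavenger receptor that takes up fatty acids and oxidised lipoproteins, was at 2.07 CPM in ascites, against 16.6, 42.3 and 6.14 CPM. For these 2 genes the tumors themselves differed more than they did for Trem2 or Fabp5. Lipa, the lysosomal acid lipase that splits cholesterol esters, was at 62.8 CPM in ascites, against 85.6, 193 and 82.9 CPM in the tumors. Plin2, the coat protein of lipid droplets, was nearly level, at 302 CPM in ascites, against 359, 324 and 417 CPM. Apoc2, the cofactor that activates Lpl, had 1 UMI among all ascites barcodes, against 1308, 887 and 2937 UMIs in the tumors. The ascites annotation also lists Gm44805, which covers Apoc2 on the same strand and is at 0 UMIs, so the 2 gene tables differ at this locus and Apoc2 was not compared with ascites; the part of the annotation in its level was not tested.

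**Figure D2:**
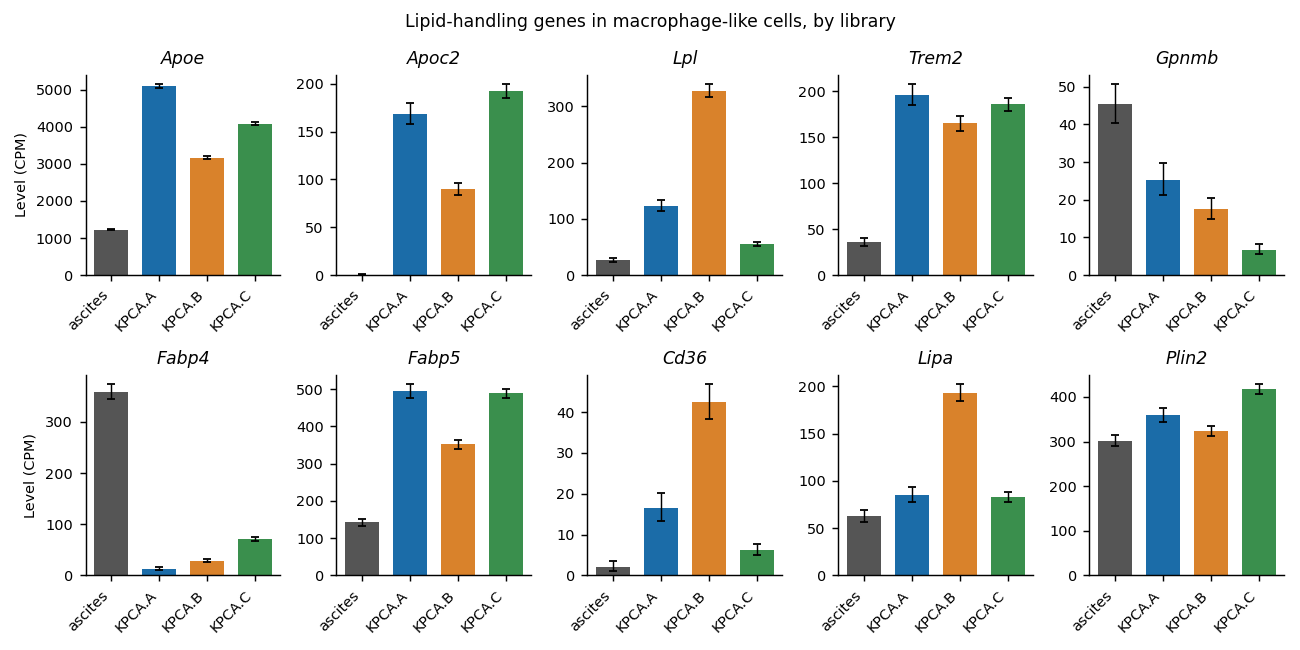
Level (CPM, axis from 0) of each gene in macrophage-like cells of ascites and of the 3 tumors, with bars for the 95% counting interval and no replicates. Fabp4 is highest in ascites at 359 CPM, whereas Apoe, Trem2 and Fabp5 are lowest there.

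A gene was counted as past 2-fold where its log2 ratio, with 5 CPM added to both levels, was at least 1 in size and the pair of libraries held at least 50 UMIs of it. Ascites against KPCA.A had 6 of 9 genes past 2-fold, beside 36.9% of all genes compared, with 1 higher (7.08% of all genes) and 5 lower (29.8%). Against KPCA.B there were 8 of 9 (36.4%), with 2 higher (6.11%) and 6 lower (30.2%). Against KPCA.C there were 5 of 9 (29.5%), with 2 higher (5.11%) and 3 lower (24.4%). The median log2 ratio of the 9 genes was −1.61, −1.36 and −0.66, beside −0.58, −0.59 and −0.52 over all genes. These 3 comparisons share the ascites library.

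That shift of the median gene bears on the near-level genes. With median-of-ratios scaling, which takes most of it out, Plin2 had log2 ratios of 0.28, 0.45 and 0.02 for ascites over KPCA.A, KPCA.B and KPCA.C, against −0.24, −0.10 and −0.46 with CPM, so its direction flips. Lipa moved to 0.08, −1.03 and 0.08 on the same scaling, against −0.42, −1.55 and −0.38, so it flips for KPCA.A and KPCA.C. Apoe stayed lower in ascites, at −1.51, −0.81 and −1.24. Macrophage markers (14 genes) summed to 4452 CPM in ascites macrophage-like cells, against 15370, 15986 and 14142 CPM in the tumors, and neutrophil markers (10 genes) to 2459 CPM, against 230.1, 69.3 and 228 CPM. Pancreatic acinar markers, of which 9 of 10 were at 0 in ascites, summed to 13.5 CPM there, against 3256, 655 and 647 CPM. The part of these in the differences was not tested.

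Adipocyte markers were low in macrophage-like cells. The 12 adipocyte markers summed to 8.73 CPM in ascites macrophage-like cells, against 19.9, 24.5 and 21.6 CPM in the 3 tumors. Adipoq and Lep, which define adipocytes, were at 0 in all 4 libraries, and 5, 4, 5 and 6 of the 12 markers had a UMI. No adipocyte-like class was found.

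Among the tumors, macrophage-like Lpl differed between all 3 lines, while Trem2, Fabp5 and Plin2 differed by less than 2-fold. Macrophage-like cells of KPCA.A had 124 CPM of Lpl, those of KPCA.B had 327 CPM and those of KPCA.C had 55.4 CPM, and none of the 3 counting intervals overlapped. KPCA.A was 2.65-fold (2.44 to 2.88) lower than KPCA.B and 2.23-fold (2.01 to 2.47) higher than KPCA.C, and KPCA.B stood 5.90-fold (5.46 to 6.40) above KPCA.C. Cd36 followed the same order, and KPCA.B exceeded KPCA.C 6.89-fold (5.45 to 8.80). Lipa in KPCA.B exceeded that in KPCA.C 2.33-fold (2.16 to 2.51), with KPCA.A and KPCA.C within counting error of each other.

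Gpnmb in KPCA.A exceeded that in KPCA.C 3.73-fold (2.87 to 4.88), at low levels. Fabp4 was highest in KPCA.C: KPCA.A was 5.63-fold (4.43 to 7.25) lower than KPCA.C, and KPCA.B was 2.45-fold (2.14 to 2.81) lower. With every cell given the same weight these log2 ratios shrank to −0.72 and −0.39, and without the large peritoneal-like cells described further on both reversed, to 0.56 and 1.21. Apoc2 was lower in KPCA.B, at 89.7 CPM, against 192 CPM in KPCA.C, and stood at 168 CPM in KPCA.A. The log2 ratios of Trem2 were 0.24 for KPCA.A over KPCA.B, 0.08 for KPCA.A over KPCA.C and −0.17 for KPCA.B over KPCA.C.

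In counts, KPCA.A against KPCA.B had 3 of 10 genes past 2-fold, all lower in KPCA.A (Lpl, Cd36 and Lipa), beside a background of 5.94% of genes, or 2.82% for lower alone. The count was 1, Lipa alone, where every cell was given the same weight or thinned to 1000 UMIs. Lpl then had log2 ratios of −0.55 and −0.54, against −1.37, and Cd36 had −0.45 with equal weights, against −1.13, and too few UMIs after thinning. KPCA.A against KPCA.C had 3 of 10, beside 1.65%, with Gpnmb and Lpl higher (0.668%) and Fabp4 lower (0.987%). KPCA.B against KPCA.C had 5 of 10, beside 5.51%, with Lpl, Cd36 and Lipa higher (2.33%) and Fabp4 and Apoc2 lower (3.17%). Hypoxia genes moved alongside: 8 of 15 were higher in KPCA.A over KPCA.B, and 10 of 15 lower in KPCA.B over KPCA.C. Dissociation stress genes did likewise, with 9 of 13 in each of these comparisons, and their part in the result was not tested. Between KPCA.A and KPCA.C none of either list was past 2-fold.

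**Figure D3:**
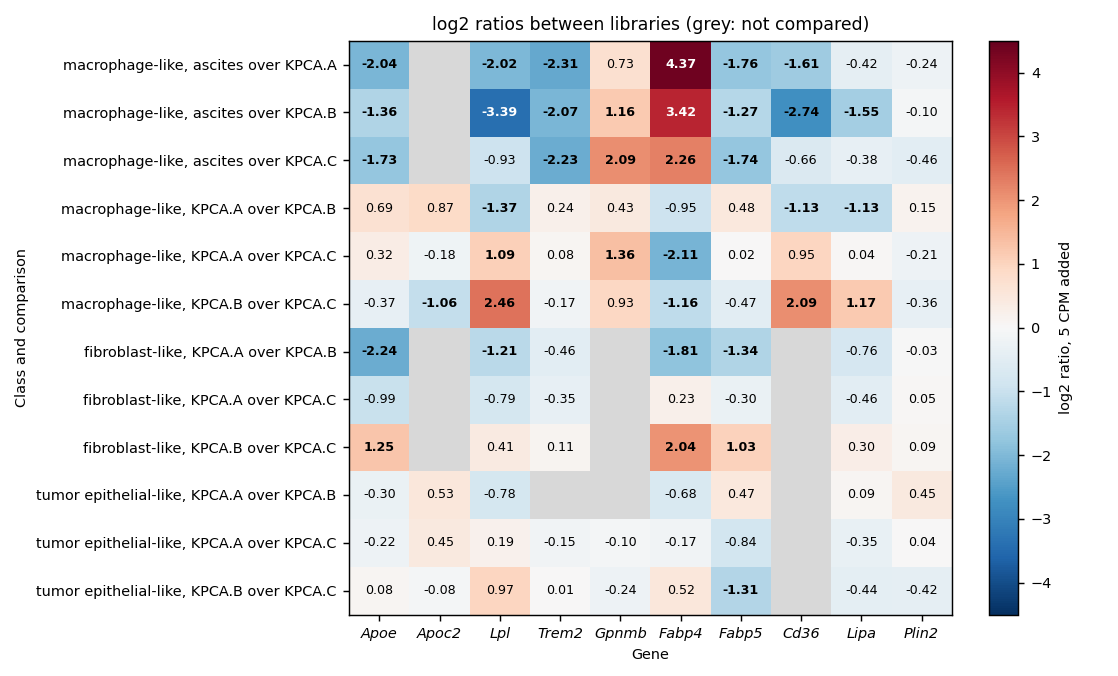
Heat map of log2 ratios (5 CPM added, first library over the one after it) of the 10 genes for each class and pair of libraries, with grey for pairs not compared. The ascites rows are positive for Fabp4, from 2.26 to 4.37, and negative for Apoe and Trem2, and the KPCA.B over KPCA.C row is positive for Lpl at 2.46.

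Macrophage subsets showed which cells carried these levels. Macrophage-like cells were clustered again, tumors and ascites apart, which gave 21 units of subset and library with at least 50 cells. In ascites the large peritoneal-like subset was the most numerous, with 1191 cells, whereas it had 34, 95 and 95 cells in the 3 tumors. Gata6 reached 50 CPM in 6 units, 4 of ascites and 2 of tumors, a split chosen after its values were seen. Those 6 units had Apoe from 159 to 1066 CPM, with a median of 344 CPM, against 1532 to 8776 CPM, with a median of 4598 CPM, in the other 15 units. Their Fabp4 lay between 60.0 and 797 CPM, against 0.787 to 55.7 CPM. The ranges did not overlap for either gene, nor for Trem2, at 8.21 to 47.0 CPM against 59.0 to 260 CPM. Plin2 did overlap, at 238 to 558 CPM against 207 to 625 CPM. Clusters were made without these genes, but genes linked to them took part, so the contrast is a description.

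**Figure D4:**
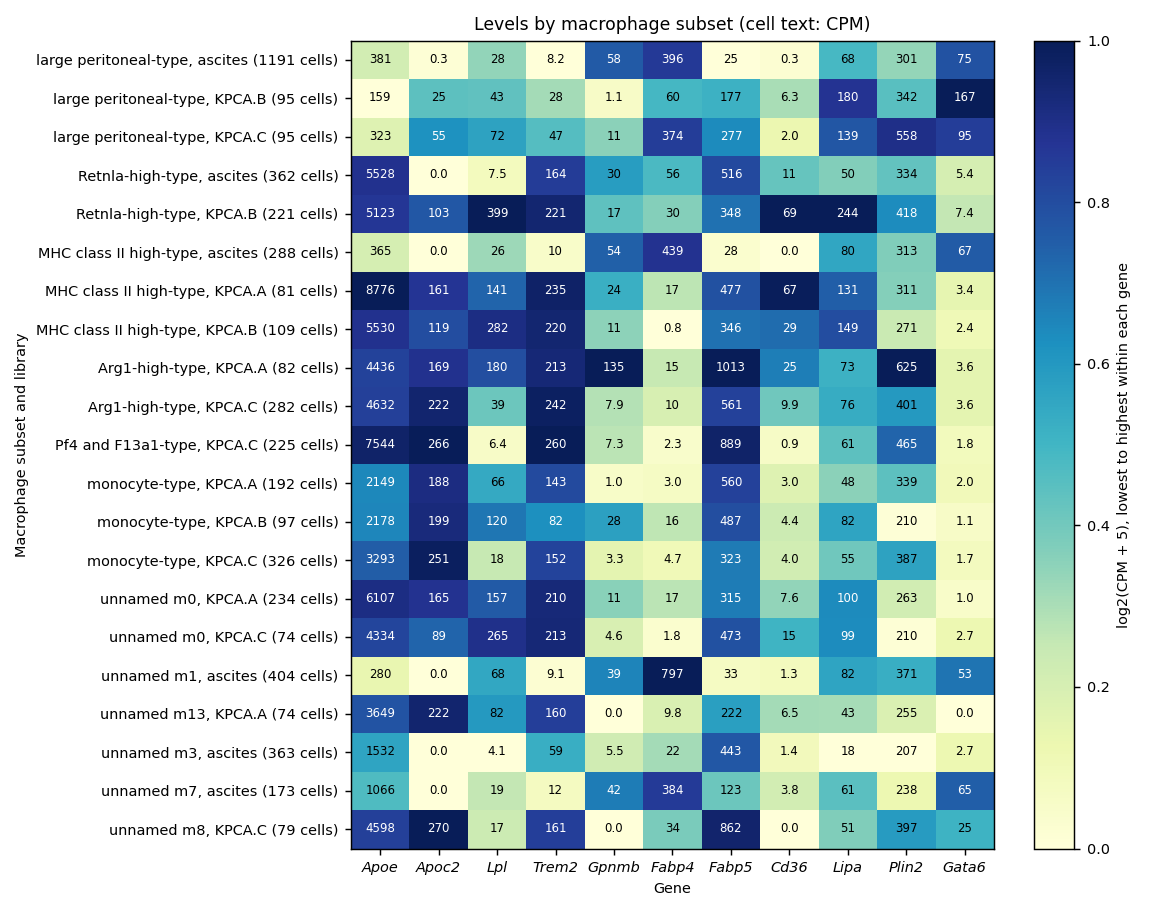
Levels by macrophage subset and library (cell text in CPM, colour from the lowest to the highest value within each gene). Large peritoneal-like units, with Fabp4 of 396 CPM in ascites, 374 CPM in KPCA.C and 60.0 CPM in KPCA.B, are low in Apoe and Trem2.

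Within each of 3 libraries the large peritoneal-like cells were more than 2-fold below the other macrophage-like cells in Apoe and Trem2, while the other genes varied by library. KPCA.A, with fewer than 50 such cells, was left out and differed in Trem2. There 33 of these cells, in a cluster shared with KPCA.C, had 255 CPM of Trem2 (185 to 344), against 196 CPM in all macrophage-like cells of KPCA.A. Their Apoe was lower, at 1780 CPM, against 5088 CPM. In ascites they had 381 CPM of Apoe, against 2035 CPM in the others, a 5.35-fold (5.04 to 5.69) lower level, and 24.6 CPM of Fabp5, against 255 CPM. In KPCA.B they had 159 CPM of Apoe, against 3948 CPM, and 42.6 CPM of Lpl, against 402 CPM. In KPCA.C they had 323 CPM of Apoe, against 4880 CPM, and 374 CPM of Fabp4, against 6.17 CPM, which is 60.5-fold (47.6 to 78.1) higher. The Fabp4 of KPCA.C macrophage-like cells therefore lay mostly in 95 of 1135 cells. With this subset left out, an alternative chosen after the data were seen, the Fabp4 log2 ratio was 0.56 for KPCA.A over KPCA.C and 1.21 for KPCA.B over KPCA.C, against −2.11 and −1.16 with it, so both directions reverse. In ascites Fabp4 was not confined to it: the others held 323 CPM, against 396 CPM in the large peritoneal-like cells. Those others included unnamed clusters and cells high in MHC class II genes whose Gata6 was 53.4 to 67.2 CPM. Counts past 2-fold were 3 of 8 genes in ascites (background 2.68%), 8 of 10 in KPCA.B (12.1%) and 4 of 10 in KPCA.C (12.1%).

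**Figure D5:**
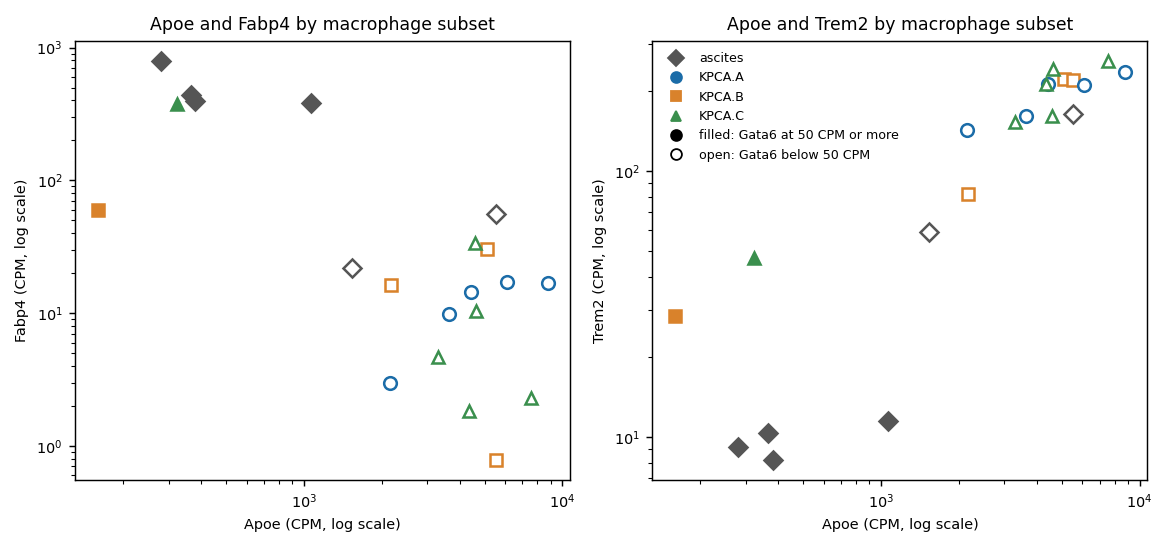
Each point is 1 macrophage subset in 1 library (21 units, both axes in CPM on log scales), with Apoe across and Trem2 or Fabp4 up, filled where Gata6 is at 50 CPM or more. Units high in Apoe are high in Trem2 and low in Fabp4.

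Across those 21 units, which share 4 libraries and their depths, Apoe and Trem2 went together with a Pearson r of 0.90 on log2 values, and of 0.97 over the 15 tumor units. Apoe and Fabp4 ran opposite, with r of −0.78 and −0.67 in the tumor units. In 2 of the tumor units Gata6 was at 50 CPM or more. Their Apoe was 159 to 323 CPM, against 2149 to 8776 CPM in the other 13. Their Trem2 was 28.4 to 47.0 CPM, against 81.9 to 260 CPM, and their Fabp4 60.0 to 374 CPM, against 0.787 to 33.8 CPM. The weight of these 2 units in r was not tested. Lpl went with Cd36 (0.69, and 0.76 in the tumor units) and with Lipa (0.69 and 0.57). Plin2 and Apoe were unrelated at −0.02. These values describe the units and carry no test.

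Subsets of the same name, found separately in ascites and tumors, differed in how close their levels were. Retnla-high cells, which carry the alternative-activation gene Retnla, had 5528 CPM of Apoe in ascites and 5123 CPM in KPCA.B, and 164 and 221 CPM of Trem2 in the same order. Lpl in them was 7.50 CPM in ascites, against 399 CPM in KPCA.B, and Cd36 10.7 CPM, against 69.1 CPM, so Lpl, Cd36 and Lipa were the 3 of 9 genes past 2-fold (background 36.7%). Cells high in MHC class II genes were far apart, with 365 CPM of Apoe in ascites, against 8776 CPM in KPCA.A and 5530 CPM in KPCA.B, and 439 CPM of Fabp4, against 16.8 and 0.787 CPM. Those of ascites had Gata6 at 67.2 CPM, against 3.36 and 2.36 CPM. Large peritoneal-like cells had Fabp4 of 396 CPM in ascites, against 374 CPM in KPCA.C, a fold of 1.06 (0.973 to 1.15), but 6.60-fold (5.45 to 8.06) above the 60.0 CPM of KPCA.B. The cells of those tumors fell in different clusters, 91 of 95 KPCA.C cells in one and all 95 KPCA.B cells in another. Fabp5 of large peritoneal-like cells was 24.6 CPM in ascites, against 277 CPM in KPCA.C, and Gpnmb 58.0 CPM, against 11.2 CPM. Of the 8 genes compared between ascites and KPCA.C, 4 were past 2-fold (background 26.9%).

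Some of the subsets that tumors shared had Lpl in the order seen in macrophage-like cells as a whole. Arg1-high cells take their name from a marker list that includes the arginase gene Arg1, but Arg1 itself was not highest in them. Their clusters had 8535 and 8513 CPM of Arg1, against 10249 CPM in a monocyte-like cluster and 10077 CPM in cells high in Pf4 and F13a1. Another monocyte-like cluster had 248 CPM. Arg1-high cells had 180.0 CPM of Lpl in KPCA.A, against 38.7 CPM in KPCA.C, a log2 ratio of 2.08. Gpnmb was 135 CPM in the same cells of KPCA.A, against 7.91 CPM in KPCA.C, 17.0-fold (11.2 to 26.2) higher, and 3 of 10 genes were past 2-fold (background 4.55%). This subset joined clusters that the lines filled unequally: one led by Hspa1b had 55 KPCA.A and 60 KPCA.C cells, and one led by Cxcl2 had 27 and 222. Within the Hspa1b cluster Lpl was 211 CPM in KPCA.A, against 122 CPM in KPCA.C, and Gpnmb 148 CPM, against 29.1 CPM. Within the Cxcl2 cluster Lpl was 153 CPM in KPCA.A, against 26.9 CPM in KPCA.C, and Gpnmb 123 CPM, against 4.91 CPM, so both genes were higher in KPCA.A in either cluster.

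In monocyte-like cells Lpl was 65.8 CPM in KPCA.A, 120.1 CPM in KPCA.B but 18.4 CPM in KPCA.C, and here too the lines filled the joined clusters unequally. Of 97 KPCA.B cells 70 were in a cluster led by Ly6c2, which held 44 KPCA.A and 48 KPCA.C cells, and within it Lpl was 10.5, 11.8 and 14.2 CPM in the 3 tumors, with intervals that overlapped. In a cluster led by Cxcl3 Lpl was 61.3 CPM in KPCA.A, against 25.2 CPM in KPCA.C, and in one led by Cxcl10 it was 99.4 CPM, against 14.7 CPM. In cells high in MHC class II genes it was 141 CPM in KPCA.A and 282 CPM in KPCA.B. Large peritoneal-like cells were an exception, with 42.6 CPM in KPCA.B, against 72.3 CPM in KPCA.C. Cells high in Pf4 and F13a1, of which KPCA.C had 225, combined 7544 CPM of Apoe with 6.38 CPM of Lpl. An unnamed cluster led by Ccl17 and Plet1 had 157 CPM of Lpl in 234 KPCA.A cells, 1314 CPM in 34 KPCA.B cells and 265 CPM in 74 KPCA.C cells. It was a further exception, with KPCA.A below KPCA.C, the reverse of macrophage-like cells as a whole. The cluster held 234 of 821 macrophage-like cells in KPCA.A, against 74 of 1135 in KPCA.C.

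Fibroblast-like cells had the highest Lpl level of any class in the tumors and differed between lines in Apoe and Fabp4. Lpl was at 198 CPM in KPCA.A, 463 CPM in KPCA.B, and KPCA.C had 347 CPM. Apoe was at 173, 834 and 347 CPM, so KPCA.A was 4.84-fold (4.49 to 5.22) lower than KPCA.B. Fabp4 was at 48.9, 184 and 41.0 CPM in the same order. KPCA.B thus held the highest level of each of the 3 genes. By summed UMIs, macrophage-like cells of KPCA.B held more Lpl than its fibroblast-like cells, with 3001 against 1390 UMIs. KPCA.A against KPCA.B had 4 of 7 genes past 2-fold (background 5.2%), all lower (2.28%). KPCA.A against KPCA.C had 0 of 7 (1.92%), and KPCA.B against KPCA.C had 3 of 7 (5.17%), all higher (1.8%).

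Plin2 in fibroblast-like cells was even, at 88.4, 90.6 and 85.1 CPM in the 3 tumors. Trem2, which is known as a myeloid gene, read 39.3, 56.0 and 51.6 CPM in them. The 14 macrophage markers summed to 93.3, 832 and 332 CPM in those of the 3 tumors, in the order of Apoe, and endothelial markers to 201, 312 and 223 CPM, in which KPCA.B was again highest. Mesothelial markers (10 genes) summed to 888, 1072 and 621 CPM in the same cells, and pericyte markers (10 genes) to 1096, 994 and 1068 CPM. No mesothelial-like or pericyte-like class was named, so the fibroblast-like class may include such cells. The part of such RNA or cells in the fibroblast-like levels was not tested. Adipocyte markers summed to 6.70, 7.33 and 2.64 CPM, with Adipoq, Plin1 and Lep at 0 in all 3.

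Tumor epithelial-like cells expressed few of the genes, and Plin2 led among lines at 186, 134 and 181 CPM in the 3 tumors. Fabp5 was at 28.7, 19.4 and 55.4 CPM, and KPCA.B was 2.86-fold (2.50 to 3.29) lower than KPCA.C. Fabp5 was the 1 of 9 genes past 2-fold in that pair (background 10.8%), against 0 of 7 between KPCA.A and KPCA.B (5.8%) and 0 of 9 between KPCA.A and KPCA.C (5.67%). Lipa stood at 28.3, 26.3 and 37.5 CPM. In T cell-like cells, used here as a rough measure of free RNA, Fabp5 was at 24.6 CPM for KPCA.B and 43.1 CPM for KPCA.C, and Lipa at 47.1 and 41.9 CPM. In CPM, the Fabp5 of KPCA.B and the Lipa of KPCA.B and KPCA.C were thus below those levels. Of these, only the Lipa of KPCA.B lay outside the T cell-like counting interval. The Fabp5 of KPCA.C was within the counting interval of its T cell-like level. Plin2 was well above its T cell-like levels of 25.6 and 32.3 CPM. Apoe, at 33.1, 41.8 and 39.3 CPM, was near or below its level in T cell-like cells of 38.9 CPM for KPCA.B and 74.2 CPM for KPCA.C. T cell-like cells are no firm floor, since they were shallower. KPCA.C held 3536 Fabp5 UMIs in 1363 tumor epithelial-like cells, against 36 in 153 T cell-like cells. Lipa had 2394 UMIs against 35 in the same cells, and Apoe 2509 against 62. KPCA.B held 222 Fabp5, 301 Lipa and 479 Apoe UMIs in 424 tumor epithelial-like cells. Its 216 T cell-like cells held 24, 46 and 38. Per cell, tumor epithelial-like cells thus had more UMIs of all 3 genes. B cell-like cells of KPCA.B and KPCA.C had less Fabp5, at 7.25 and 9.00 CPM, and more Apoe, at 175 and 582 CPM. The part of free RNA in Apoe, Lipa and Fabp5 was not tested. Lpl, Trem2, Gpnmb, Fabp4, Cd36 and Apoc2 were at 6.02 CPM or lower in every line.

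Endothelial-like cells of KPCA.A (88 cells) had 5522 CPM of Fabp4, 518 CPM of Cd36 and 445 CPM of Fabp5, and they also carried Gpihbp1, the protein that holds Lpl on the capillary wall, at 589 CPM. Their own Lpl was 3.85 CPM. Dendritic cell-like cells had 1687 CPM of Fabp5 in ascites, against 1051 CPM in those of KPCA.B and 1052 CPM in those of KPCA.C, and 214 CPM of Fabp4, against 13.3 and 29.1 CPM. The name is weak in ascites: 37 of those 50 cells lay in a cluster with 0 dendritic markers among its 50 leading genes, though 4 were detected. The other 13 were in a cluster that had Fabp5 among its leading genes. Neutrophil-like cells of KPCA.A had 554 CPM of Plin2, above the 359 CPM of macrophage-like cells there.

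Depth differed, so the share of macrophage-like cells with a UMI was compared after thinning each cell to 1000 UMIs, which left out 703, 32, 19 and 51 shallower cells in ascites, KPCA.A, KPCA.B and KPCA.C. Apoe was then found in 37.2% of ascites cells (exact interval 35.2 to 39.4%), against 76.0%, 65.1% and 76.5% in the tumors. Unthinned shares were 51.5%, against 89.0%, 87.1% and 93.0%. Fabp4 was found in 20.7% (19.0 to 22.5%) of thinned ascites cells, against 1.14%, 1.61% and 3.23%. Trem2 was found in 3.37% (2.64 to 4.24%), against 15.3%, 15.1% and 16.5%. In T cell-like cells, taken as a measure of free RNA, Apoe was found after thinning in 3.27% of KPCA.B cells and 7.84% of KPCA.C cells, and Trem2 and Fabp4 in 0 of 214 and 0 of 153 cells. Unthinned, at median depths of 3828 and 4841 UMIs, Apoe was found in 15.3% and 33.3% of T cell-like cells. B cell-like cells had more Apoe than that, 175 CPM for KPCA.B and 582 CPM for KPCA.C.

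Other lipid genes, in lists chosen with results of these data known, were compared in macrophage-like cells in the same way, against the shares over all genes given above: for ascites over KPCA.A, KPCA.B and KPCA.C, 7.08%, 6.11% and 5.11% of genes were 2-fold higher and 29.8%, 30.2% and 24.4% lower. Among the lipid lists, which leave out the hypoxia and dissociation stress genes, cholesterol synthesis had most genes on 1 side. In ascites 11 of 16 of its genes were 2-fold lower than in KPCA.A, 10 of 17 lower than in KPCA.B and 10 of 17 lower than in KPCA.C. None was 2-fold higher. Its median log2 ratios were −1.42, −1.22 and −1.14, beside medians of −0.58, −0.59 and −0.52 over all genes, and Cyp51, a demethylase of the pathway, was at 3.55 CPM in ascites, against 55.7, 56.7 and 41.4 CPM. The fatty acid synthesis list was split, with 3 genes higher in each comparison and 4, 5 and 3 lower of 11, 13 and 12. Scd1, the desaturase, was at 109 CPM in ascites, against 4.37, 5.89 and 5.09 CPM.

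Among lipoprotein genes, 4 of 14, 3 of 15 and 4 of 17 were 2-fold higher in ascites than in KPCA.A, KPCA.B and KPCA.C, and 3, 3 and 4 lower. Apoc4 and Apoc1, neighbours of Apoe in the mouse genome, were at 46.3 and 38.3 CPM in ascites and at no more than 4.38 and 3.27 CPM in the tumors. Stab1, a scavenger receptor, was at 19.8 CPM, against 169, 120.3 and 173 CPM. The droplet list had 2 of 10, 2 of 12 and 1 of 13 genes higher and 3 lower in each. Pnpla2, the triglyceride lipase, was at 122 CPM, against 31.4, 33.5 and 35.2 CPM, and Soat1, which esterifies cholesterol, at 72.2 CPM, against 231, 186 and 260 CPM. Fatty acid uptake and oxidation genes had 2, 1 and 2 of 16 higher and 2, 2 and 1 lower, with Fabp7 at 188 CPM in ascites, against 3.14, 10.1 and 10.3 CPM.

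Lysosomal lipid genes had 1 of 19 higher in each comparison and 4, 5 and 3 lower. Hexa, which trims gangliosides, was at 86.8 CPM in ascites, against 300.3, 386 and 254 CPM. Lipid-sensing transcription factors had 1 of 8 higher and 3, 3 and 2 lower. The lipid-associated macrophage list was divided, with 5, 6 and 4 of 17 higher and 4, 5 and 3 lower, and its Itgax was at 2.07 CPM in ascites, against 166, 114 and 56.7 CPM. Hypoxia genes had 12 of 14, 5 of 14 and 12 of 15 lower in ascites, with 2 higher than in KPCA.B, and dissociation stress genes 11, 7 and 11 of 13 lower, also with 2 higher than in KPCA.B.

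From 0 to 3 genes of each of the lipid lists were past 2-fold between tumors, beside 5.94%, 1.65% and 5.51% of all genes for KPCA.A over KPCA.B, KPCA.A over KPCA.C and KPCA.B over KPCA.C. Pltp, which transfers phospholipids between lipoproteins, followed Lpl: it was at 58.1 CPM in KPCA.A, 239 CPM in KPCA.B but 44.3 CPM in KPCA.C. Abca1, the cholesterol exporter, was lower in KPCA.B at 138 CPM, against 328 CPM in KPCA.C. Hilpda, an inhibitor of droplet lipolysis that hypoxia induces and that stands on both the droplet and hypoxia lists, was at 183 CPM in KPCA.A, 25.3 CPM in KPCA.B but 269 CPM in KPCA.C. Spp1, on the lipid-associated list, was at 1831, 493 and 2405 CPM. For KPCA.A over KPCA.B, KPCA.A over KPCA.C and KPCA.B over KPCA.C, lipoprotein genes had 3 of 13, 1 of 16 and 2 of 17 past 2-fold. Droplet genes had 3 of 11, 0 of 12 and 1 of 13, and fatty acid synthesis genes had 2, 2 and 0 of 13. The lipid-associated list had 1 of 17 in each, the transcription factors 1 of 6, 0 of 7 and 0 of 7, and the cholesterol synthesis, lysosomal and fatty acid uptake lists 0 in each.

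Genes whose levels were most like those of each member were sought over 21 units of class and library, among 7407 genes, by Pearson r of log2 values. Apoe had an r of 0.89 with Trem2. Apoc2 was most like Ms4a7 (0.95), Trem2 like Slc7a2 (0.96), and Lpl like Igf1 (0.93). Fabp4 and Cd36 were most like genes read in endothelial-like cells, Adcy4 (0.86) and Vwf (0.84). The only endothelial-like unit was that of KPCA.A, at 5522 CPM of Fabp4 and 518 CPM of Cd36. The other units had at most 359 and 55.4 CPM, and the weight of that unit in r was not tested. Plin2 was most like Prdx5 (0.94), Fabp5 like Hfe (0.91), Lipa like Rab3il1 (0.86) and Gpnmb like Hgsnat (0.84). The units share libraries and depth, and the values carry no test.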

How the data were processed

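Single-cell RNA was measured in 1 library per group. The deposited matrices give whole UMI counts for each gene in each barcode, made by the authors with Cell Ranger 4.0.0 (tumors) and 3.0.2 (ascites) per the file headers, whereas mm10 and Cell Ranger 3.1.0 stand in the submitters' processing notes. Besides counts, the authors deposited tables of other values (gene identifiers and symbols, and barcodes). Total counts were 7420674 UMIs in ascites, and 58591493, 40054369 and 95130645 UMIs in the KPCA tumors A to C.

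Kept were barcodes with 300 genes or more and 500 UMIs or more, of which no more than 15% were mitochondrial. The mitochondrial limit removed 5.45% of ascites barcodes, and 53.3%, 22.5% and 24.3% in those tumors. All libraries were clustered together without integration in scanpy 1.11.5 (2000 variable genes less the members and lipid lists, 30 components, 15 neighbours, Leiden resolution 1, leidenalg 0.10.2). Clusters were named by marker scores; of 44 clusters those left unnamed held 260 cells. Tumor epithelial-like clusters also needed 200 CPM of Cdkn2a, a limit set after the data were seen. Doublets were not removed, and an alternative left out the 5% of cells with the highest doublet scores.

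Within each library the UMIs of a class were summed and expressed as CPM of the genes shared by all annotations. Levels have exact Poisson intervals, shares exact Clopper-Pearson intervals and folds exact conditional intervals. No test was made, since cells are not replicates. The interval and ratio code was tested on simulated data. All 10 members are named, with the listed genes furthest past 2-fold and, for likeness, a leading gene per member; the gene most like Apoe is not reported here. Which of these listed genes the text gives was decided with their values known. The members and lists were chosen with earlier results of these data known. Alternatives were looser and stricter cell filters, resolutions 0.5 and 2, lipid genes kept among the variable genes, each library clustered alone, the mean over cells, median-of-ratios scaling, 1 or 20 CPM added and thinning to 1000 UMIs. Leaving out large peritoneal-like cells, or sub-clusters led by acinar genes, was added after the data were seen.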

Additional observations from a re-analysis of the deposited data

How the results depend on the processing

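Of 38 member ratios past 2-fold, 36 kept their direction under every alternative run and 22 stayed past 2-fold under all. The 2 that reversed were Fabp4 in macrophage-like cells without large peritoneal-like cells, at 0.56 for KPCA.A over KPCA.C and 1.21 for KPCA.B over KPCA.C; the subset left out holds most of the KPCA.C Fabp4. Of 186 counts 27 moved. In macrophage-like cells, KPCA.A against KPCA.B went to 1 gene with the mean over cells or thinning, KPCA.A against KPCA.C to 1 with 20 CPM added, and KPCA.B against KPCA.C to 3 with the mean over cells, 20 CPM added or thinning. Ascites against KPCA.B went to 5 without large peritoneal-like cells, and the genes highest in macrophage-like cells of ascites to 4 at resolution 2. In tumor epithelial-like cells, KPCA.A against KPCA.C went to 1 with the looser filter, resolution 0.5, lipid genes kept, libraries clustered alone, the mean over cells or 1 CPM added. KPCA.A against KPCA.B went to 1 with the mean over cells and 3 with 1 CPM added, and KPCA.B against KPCA.C to 2, 3 and, with 20 CPM added, 0. In fibroblast-like cells, KPCA.A against KPCA.C went to 1 with the looser filter, median-of-ratios scaling or 1 CPM added, to 2 with the stricter filter or resolution 2 and to 3 with libraries clustered alone. Thinning took KPCA.A against KPCA.B to 2 and KPCA.B against KPCA.C to 1. The cause of these moves was not tested. No paired analysis was possible because each group has 1 library. Depth limits ascites most, where Cd36 had 2.07 CPM and Apoc2 1 UMI.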

Other observations

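Apoe was also high in an unnamed cluster. Its markers scored highest for tumor epithelial-like cells, but it was left unnamed because its Cdkn2a was under the 200 CPM limit. This epithelial cluster held 79 KPCA.A cells with 4928 CPM of Apoe (95% counting interval 4770 to 5090 CPM), near the 5088 CPM of macrophage-like cells in the same library. The keratin gene Krt8 was at 1928 CPM in these cells and Cdkn2a, which marked tumor epithelial-like clusters at 489 CPM or more, at 5.37 CPM. Trem2 and Lpl, each with 2 UMIs, were at 2.68 CPM, Fabp4 and Cd36 were at 0, which allows up to 3 UMIs, and Plin2 was at 75.1 CPM. The same cluster held 14 KPCA.B cells, at 7541 CPM of Apoe, and 4 KPCA.C cells.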
